A study of Homo sapiens with 10 samples.

Results

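The genes described here encode the nuclear pore complex and the carriers that move proteins and RNA through it, 55 genes of the 58174 in the deposited table. Members were chosen by symbol as Ran cycle genes, importins, exportins and nucleoporins, with earlier results of these data known, and the rule itself uses no measured value. All 55 were found, and all reached the mean of 1 TPM (a level scaled for transcript length and to a fixed total per library) that was asked of a tested gene. They fall into 6 Ran cycle genes, 7 exportins, 6 importin alphas, 11 importins of the beta family and 25 nucleoporins. The nucleoporins are 7 of the Y complex, 5 of the inner ring, 3 of the central channel, 3 anchored in the membrane, 3 of the nuclear basket and 4 of the cytoplasmic face.

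Traffic between nucleus and cytoplasm runs through pores built from many copies of each nucleoporin, and cargo above a small size crosses only on a carrier. Importins bind cargo in the cytoplasm and let go of it when they meet Ran loaded with GTP in the nucleus, while exportins bind cargo together with Ran-GTP and release it outside, where RANGAP1 and RANBP1 help Ran to hydrolyse GTP. TDP-43, the RNA-binding protein encoded by TARDBP, is itself a nuclear protein imported by the importin alpha and KPNB1 pair, and its loss from the nucleus marks neurons in amyotrophic lateral sclerosis, a disease in which defects of the pore have been described.

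The study asked which transcripts change when TDP-43 is lost or mutated in SH-SY5Y, a human neuroblastoma line with neuron-like features. For the knockdown, cells received siRNA at 50 nM for 96 hours, with a second dose at 24 hours, either a pool directed at TDP-43 (siTDP-43, 3 libraries) or a control pool (siControl, 3 libraries). In the genotype comparison the libraries numbered 81 and 82 are of homozygous TDP-43 N352S cells, carrying an amino acid change made by genome editing, while those numbered 79 and 80 are of wild-type cells. The labels do not say whether the libraries of a genotype are 1 clone or several, nor what separated the biological replicates of a group.

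TARDBP stood at 62.3, 63.1 and 67.7 TPM in siTDP-43 libraries, against 256, 256 and 256 TPM in siControl libraries, and at 123 and 122 TPM in N352S libraries, against 196 and 205 TPM in wild-type libraries. The number of genes at 1 TPM or above was 16711 to 17398 per library, and mitochondrially encoded transcripts took 15.5% to 16.2% of TPM in siTDP-43 libraries, 12.0% to 14.3% in siControl libraries, 13.6% to 14.1% in N352S libraries and 14.0% to 14.8% in wild-type libraries. The 7 noradrenergic markers of the line, of which DBH is the most abundant, summed to 2999 to 3375 TPM in every library, but single markers moved. After knockdown PHOX2A (log2 -0.36) and ISL1 (-0.27) were called lower and GATA3 (0.36), HAND2 (0.19) and TH (0.85) higher, and in N352S PHOX2A was called higher (0.29) and DBH lower (-0.15), by limma. TH was near the lowest level tested, at 2.76 TPM in siTDP-43 and 1.1 TPM in siControl libraries on average. The 6 mesenchymal markers summed to 196 to 217 TPM in siTDP-43 libraries and 149.7 to 182 TPM in siControl libraries, and to 215 to 223 TPM in N352S libraries and 140 to 149 TPM in wild-type libraries, with TWIST1 higher in both comparisons and YAP1 lower in both. Most of each sum was TWIST1, at 195 TPM in siTDP-43, 148 in siControl, 213 in N352S and 137 in wild-type libraries on average. In N352S, SNAI2 was also called higher (log2 1.02) and CD44 lower (-1.14). Both were low, SNAI2 at 3.9 TPM in N352S and 1.5 TPM in wild-type libraries, and CD44 at 0.87 and 3.13 TPM. Of the 4 tested markers, 2 were therefore higher and 2 lower in N352S, and 1 higher and 1 lower after knockdown. The part of these markers in the members' changes was not tested. The Schwann cell factor FOXD3 and the immune and endothelial markers PTPRC and PECAM1 were under 0.1 TPM on average in each group. TPM keep no depth, so the depth of the libraries is unknown and no counting error can be given.

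RAN had the highest level of the members, at 956 ± 22.1 TPM in siTDP-43 libraries and 1007 ± 28.97 TPM in siControl libraries (SD, n = 3 each), and KPNA5 the lowest, at 13.02 ± 0.9951 TPM in siTDP-43 libraries and 13.2 ± 0.541 TPM in siControl libraries. Over all 10 libraries the median member had 57.2 TPM, 15 members were above 100 TPM and 7 below 30 TPM. The importin beta KPNB1 (359 TPM), the importin alpha KPNA2 (316 TPM) and the Ran-binding protein RANBP1 (288 TPM) followed RAN in the mean over all libraries. Inner ring and Y complex genes were lower, with NUP205 (106 TPM) and NUP85 (86.0 TPM) at the top of those groups. Medians per role, on this per-length scale, were 104 TPM in the importin beta family, 95.4 TPM among exportins, 49.8 TPM in the inner ring, 43.8 TPM in the Y complex and 34.4 TPM among importin alphas, the lowest of the 10 roles.

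**Figure D1:**
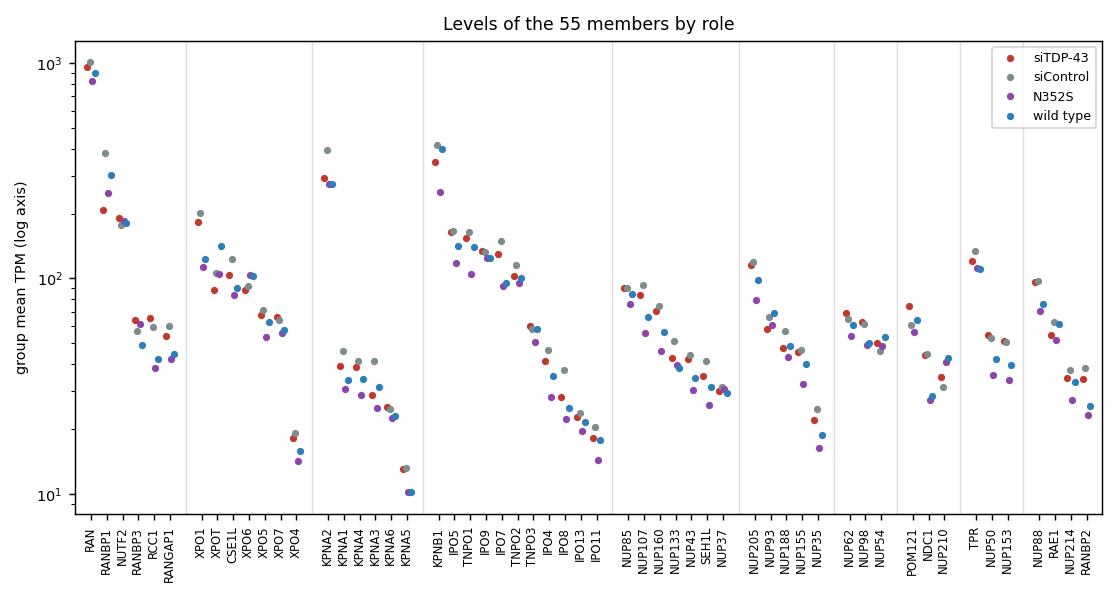
Group mean level in TPM (log axis) of each of the 55 members, ordered by role and by mean level within a role, with 1 point for each of the 4 groups. RAN is the highest gene, at 827 to 1007 TPM, and the siTDP-43 point of RANBP1 and the N352S point of KPNB1 stand below the other 3 groups.

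Within the importin alpha family, whose members recognise the classical nuclear localisation signal, KPNA2 made up 66.9% ± 0.283 of the summed TPM of the 6 genes in siTDP-43 libraries and 70.2% ± 1.79 in siControl libraries. The corresponding shares were 70.1% ± 0.104 in N352S libraries and 67.5% ± 0.317 in wild-type libraries. The sum itself was 437 ± 8.37 TPM in siTDP-43 libraries against 560.4 ± 44.3 TPM in siControl libraries, and 392.3 ± 11.3 TPM in N352S libraries against 407 ± 5.88 TPM in wild-type libraries. KPNA2 held most of the importin alpha RNA in all 4 groups.

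Promoter sequence was available from RefSeq (GRCh38.p14) for 49 of the 55 members, as up to 250 bases before the annotated start. No entry was available for RANBP1, KPNB1, KPNA4, KPNA5, NUP43 and XPO7. The ETS core CCGGAAG, or CTTCCGG on the other strand, was in 14 of 49 windows (28.6%), against 19.1% of the 9909 tested genes with an entry. The letters CCAAT or ATTGG were in 19 (38.8%, against 41.7%), the E-box CACGTG in 9 (18.4%, against 11.2%), the NRF1 palindrome in 4 (8.16%, against 2.36%) and TATAAA or TTTATA in 3 (6.12%, against 7.49%). None of these motifs contains another, and a match is a description of the window only. Shown next are 4 windows, read 5′ to 3′ on the gene's strand and trimmed where an annotated transcript starts further upstream, with motif matches in capitals. They belong to the pore membrane gene POM121, called higher after knockdown (chr7:72879107-72879356, plus strand), the tRNA exportin gene XPOT, called lower in both comparisons (chr12:64404142-64404349, plus strand), the import receptor gene TNPO3, called lower in N352S (chr7:129055174-129055361, minus strand), and the exportin gene CSE1L, called lower after knockdown (chr20:49046062-49046245, plus strand).
POM121: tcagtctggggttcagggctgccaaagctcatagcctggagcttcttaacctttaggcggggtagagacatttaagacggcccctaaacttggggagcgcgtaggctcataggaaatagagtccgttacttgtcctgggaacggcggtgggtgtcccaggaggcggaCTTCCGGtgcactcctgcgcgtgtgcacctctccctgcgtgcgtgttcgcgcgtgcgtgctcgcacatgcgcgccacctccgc
XPOT: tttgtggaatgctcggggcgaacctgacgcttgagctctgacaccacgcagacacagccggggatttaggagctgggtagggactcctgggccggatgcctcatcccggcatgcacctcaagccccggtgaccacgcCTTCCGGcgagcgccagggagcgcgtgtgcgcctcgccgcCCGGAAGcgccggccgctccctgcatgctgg
TNPO3: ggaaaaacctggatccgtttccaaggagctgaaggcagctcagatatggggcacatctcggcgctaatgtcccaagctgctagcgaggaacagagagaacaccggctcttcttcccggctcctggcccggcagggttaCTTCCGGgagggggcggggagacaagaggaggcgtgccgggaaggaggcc
CSE1L: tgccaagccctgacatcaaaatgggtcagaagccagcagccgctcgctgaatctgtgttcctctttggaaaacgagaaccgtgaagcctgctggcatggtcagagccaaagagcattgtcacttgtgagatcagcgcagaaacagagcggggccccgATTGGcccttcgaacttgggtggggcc
POM121, XPOT and TNPO3 carry the ETS core, XPOT in both orientations, and CSE1L carries an inverted CCAAT box close to its start.

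The first comparison asked what loss of TDP-43 does to the transport machinery, with siTDP-43 set against siControl in a limma fit across 17118 genes. At an adjusted p under 0.05, 13 of 55 members were lower (23.6%), beside 19.8% of all tested genes, and 2 were higher (3.64%), beside 6.19% of all tested genes. The median log2 fold change of the members was -0.08, the same as the median of all genes (-0.08), and 41 members were below 0. In 23 members (41.8%) every siTDP-43 library was below every siControl library, beside 31.7% of all tested genes. In 6 members (10.9%) every siTDP-43 library was above, beside 11.9% of all tested genes. On deposited TPM, 9 of 24 import and export receptors were lower and none higher, and 3 of 25 nucleoporins were lower and 2 higher. Whether these shares differ was not tested. Scaling bears on this balance, because the share of lower genes among all calls was 76.2% on deposited TPM, 51.7% with median-of-ratios scaling, 51.1% with quantile normalization and 65.8% with mitochondrially encoded genes left out. The members lower and higher were 8 and 9 under each of the first 2 of those scalings, both of which move the median of all genes by 0.08, and 10 and 5 under the last. RANBP1, CSE1L, KPNA2, KPNA3, KPNB1, IPO8, SEH1L and NUP188 were the 8 lower members in each of the first 2, and RANBP3, RCC1, NUTF2, XPO7, NUP54, NUP62, POM121, NUP210 and NUP50 the 9 higher ones.

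RANBP1 (ENSG00000099901, chr22:20115938-20127357, plus strand, hg38) showed the largest change of any member. This cytoplasmic partner of Ran frees Ran-GTP from carriers so that it can be hydrolysed, and it is among the genes reported to take up a cryptic exon when TDP-43 is lost, which a table of gene totals cannot show. RANBP1 stood at 196, 217 and 210.4 TPM in siTDP-43 libraries, against 374, 369.7 and 405 TPM in siControl libraries. All siTDP-43 libraries were far below the siControl libraries, and the level was 54.3% of control. The log2 fold change was -0.88 ± 0.05 (SE, limma adjusted p = 1.1e-05), rank 166 from the lowest of 17118 genes. Set against the Ran that it serves, there were 21.7 ± 0.629 RANBP1 per 100 RAN in siTDP-43 libraries and 38.1 ± 2.96 in siControl libraries.

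The rest of the Ran cycle gave no call on deposited TPM. Median-of-ratios scaling and quantile normalization each called RANBP3, RCC1 and NUTF2 higher. RAN (ENSG00000132341), the GTPase itself, stood at 932, 976 and 959.9 TPM in siTDP-43 libraries, against 1008, 1035 and 977 TPM in siControl libraries. The libraries did not overlap, though the lowest siControl value (977 TPM) lay just above the highest siTDP-43 value (976 TPM), and the log2 fold change of -0.07 ± 0.04 missed the threshold (limma adjusted p = 0.16). RCC1, which loads Ran with GTP on chromatin, stood at 62.3, 67.0 and 67.2 TPM in siTDP-43 libraries, against 61.1, 57.5 and 60.0 TPM in siControl libraries, every siTDP-43 value above every siControl value. Its log2 fold change was 0.14 ± 0.05 (adjusted p = 0.074), and 11.9% of all tested genes were separated upward in this way. RANGAP1, the activating protein, averaged 54.0 ± 3.34 TPM in siTDP-43 libraries and 59.8 ± 5.70 TPM in siControl libraries. NUTF2, which carries Ran-GDP back into the nucleus, averaged 191 ± 4.73 TPM in siTDP-43 libraries and 178 ± 8.96 TPM in siControl libraries. RANBP3 averaged 63.8 ± 1.22 TPM in siTDP-43 libraries and 57.2 ± 4.56 TPM in siControl libraries, without overlap. Its log2 fold change was 0.16 ± 0.07 (limma adjusted p = 0.15).

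Of the 6 importin alphas 3 were called lower, among them KPNA3 and KPNA2, which had the next lowest log2 fold changes after RANBP1. KPNA3 (ENSG00000102753, chr13:49699307-49792921, minus strand) stood at 28.3, 29.6 and 28.1 TPM in siTDP-43 libraries, against 39.6, 43.2 and 41.9 TPM in siControl libraries. The groups were well apart, with a log2 fold change of -0.52 ± 0.05 (limma adjusted p = 0.00015). KPNA2 (ENSG00000182481, chr17:68035519-68046842, plus strand), the most abundant of the family and one that cycling cells use heavily, stood at 288, 297 and 291 TPM in siTDP-43 libraries, against 368, 372 and 441 TPM in siControl libraries. The siControl libraries were spread more widely than the siTDP-43 libraries but lay wholly above them, and the log2 fold change was -0.42 ± 0.06 (adjusted p = 0.0016). KPNA1 averaged 39.1 ± 1.75 TPM in siTDP-43 libraries and 46.1 ± 3.43 TPM in siControl libraries (log2 -0.23 ± 0.07, adjusted p = 0.038). KPNA4, KPNA5 and KPNA6 were not called, with log2 fold changes of -0.09, -0.02 and 0.03.

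CSE1L (ENSG00000124207, chr20:49046246-49096960, plus strand) is the exportin that returns empty importin alpha to the cytoplasm. It stood at 102, 106 and 102 TPM in siTDP-43 libraries, against 118, 118 and 134 TPM in siControl libraries. The groups did not overlap, and the log2 fold change was -0.25 ± 0.05 (limma adjusted p = 0.0063). There were 23.7 ± 0.199 CSE1L per 100 summed importin alpha in siTDP-43 libraries and 22.0 ± 0.283 in siControl libraries, and every siTDP-43 value of this ratio was above every siControl value.

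XPO1 (ENSG00000082898, chr2:61477849-61538626, minus strand), the exportin for leucine-rich export signals, stood at 185, 183 and 178 TPM in siTDP-43 libraries, against 198, 192 and 213 TPM in siControl libraries. The groups did not overlap but lay close, and the log2 fold change of -0.14 ± 0.05 passed narrowly (limma adjusted p = 0.046; 0.066 with the replicate number as a block). XPOT (ENSG00000184575, chr12:64404350-64451127, plus strand), which exports tRNA, stood at 82.2, 87.9 and 94.6 TPM in siTDP-43 libraries, against 102, 115 and 99.6 TPM in siControl libraries. Its groups did not overlap, and its log2 fold change was -0.25 ± 0.07 (adjusted p = 0.021). XPO4, XPO5, XPO6 and XPO7, which carry among others the translation factor eIF5A, microRNA precursors and actin with profilin, were not called, with log2 fold changes between -0.08 and 0.06.

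In the importin beta family 3 of 11 were lower. KPNB1 (ENSG00000108424, chr17:47649476-47685505, plus strand), the receptor that works with importin alpha and also alone, stood at 357, 337 and 350.2 TPM in siTDP-43 libraries, against 406, 406 and 431 TPM in siControl libraries. The groups did not overlap, and the log2 fold change was -0.25 ± 0.04 (limma adjusted p = 0.0021). IPO8 (ENSG00000133704, chr12:30628988-30695986, minus strand), a receptor of SMAD and other cargoes, stood at 27.1, 28.3 and 29.03 TPM in siTDP-43 libraries, against 38.7, 37.4 and 36.0 TPM in siControl libraries. It was the most strongly lowered of the family, at -0.40 ± 0.05 (adjusted p = 0.00058), with groups well apart. Its paralogue IPO7 averaged 130 ± 8.56 TPM in siTDP-43 libraries and 148.5 ± 6.34 TPM in siControl libraries and was not called (log2 -0.19 ± 0.07, adjusted p = 0.091). TNPO2, a transportin of proteins with a PY signal, averaged 102 ± 4.25 TPM in siTDP-43 libraries and 115 ± 2.46 TPM in siControl libraries (log2 -0.17 ± 0.04, adjusted p = 0.01).

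Among the nucleoporins, changes went both ways. SEH1L (ENSG00000085415, chr18:12947133-12987536, plus strand), a Y complex subunit that also belongs to a lysosomal nutrient-sensing complex, stood at 34.2, 36.6 and 34.96 TPM in siTDP-43 libraries, against 40.7, 40.6 and 42.99 TPM in siControl libraries. The groups were apart, with a log2 fold change of -0.23 ± 0.04 (limma adjusted p = 0.0052), and none of the other 6 Y complex genes was called. NUP188 of the inner ring averaged 47.5 ± 2.82 TPM in siTDP-43 libraries and 57.3 ± 1.80 TPM in siControl libraries (log2 -0.27 ± 0.06, adjusted p = 0.013). RAE1, an mRNA export factor at the cytoplasmic face, averaged 54.4 ± 1.56 TPM in siTDP-43 libraries and 62.5 ± 5.42 TPM in siControl libraries (log2 -0.19 ± 0.06, adjusted p = 0.047).

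On deposited TPM, both calls above control were genes of the pore membrane. The 9 higher members under median-of-ratios scaling or quantile normalization came from other roles as well. POM121 (ENSG00000196313, chr7:72879365-72951440, plus strand), which anchors the pore in the nuclear envelope, stood at 76.1, 74.1 and 73.5 TPM in siTDP-43 libraries, against 61.9, 62.5 and 57.7 TPM in siControl libraries. Each siTDP-43 library was above each siControl library, and the log2 fold change was 0.29 ± 0.05 (limma adjusted p = 0.0032). Its near-identical copy POM121C, with which reads may be shared, averaged 99.2 ± 7.15 TPM in siTDP-43 libraries and 75.7 ± 4.06 TPM in siControl libraries (log2 0.38 ± 0.06, adjusted p = 0.0021), so the values of either gene are uncertain on their own. NUP210 averaged 34.96 ± 0.511 TPM in siTDP-43 libraries and 31.3 ± 1.18 TPM in siControl libraries (log2 0.15 ± 0.04, adjusted p = 0.028). NDC1, the remaining membrane nucleoporin, averaged 44.3 ± 0.327 TPM in siTDP-43 libraries and 44.4 ± 1.31 TPM in siControl libraries and was not called.

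Of the 15 calls, 10 held whichever of the 10 libraries was left out, namely RANBP1, CSE1L, KPNA2, KPNA3, KPNB1, TNPO2, IPO8, SEH1L, NUP188 and POM121. XPO1 was lost without any siTDP-43 library, siControl 1 or 3, or either wild-type library (adjusted p 0.066 to 0.14), KPNA1 without any siTDP-43 library, siControl 2 or 3, or either wild-type library (0.056 to 0.12), XPOT without siTDP-43 1 or 2 or siControl 2 (0.06 to 0.074), NUP210 without any siTDP-43 library or siControl 1 or 3 (0.05 to 0.088), and RAE1 with any library but siControl 3 left out (0.054 to 0.13).

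**Figure D2:**
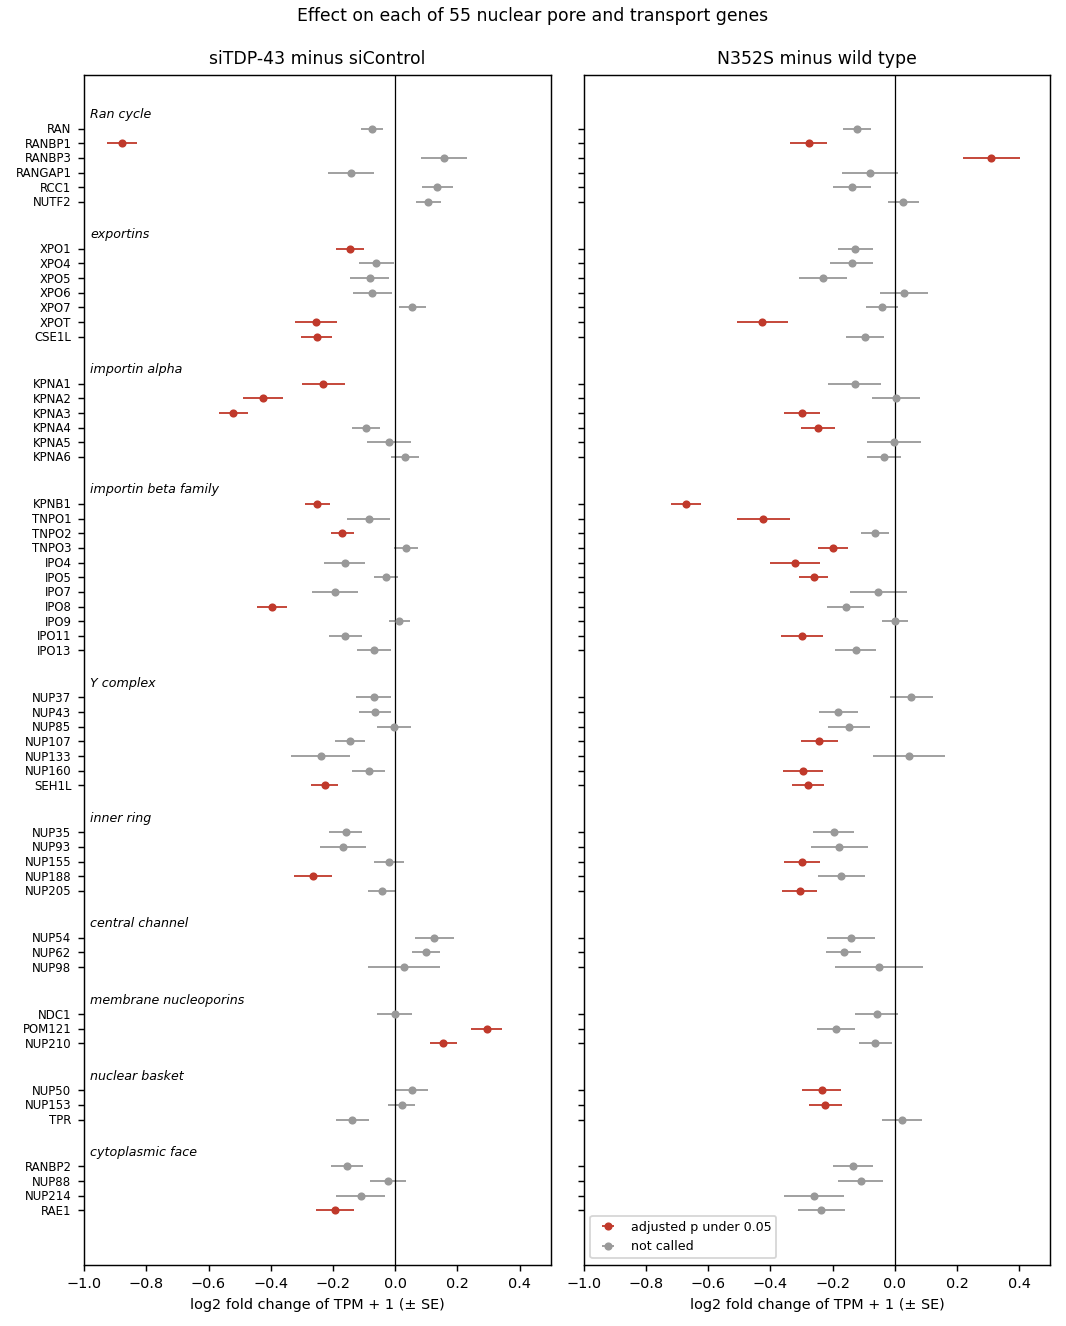
Log2 fold change of TPM + 1 with its SE for each of the 55 members, siTDP-43 minus siControl on the left and N352S minus wild type on the right, grouped by role, with called members in red and the others in grey. RANBP1 (-0.88) is the lowest point on the left, KPNB1 (-0.67) the lowest on the right, and POM121 (0.29) and NUP210 (0.15) are the red points above 0 on the left.

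Proliferation genes moved in the same comparison. Of 20 of them, 11 were lower and none higher after knockdown, on deposited TPM and under each of the 3 scalings, with MKI67 at 75.4 ± 0.746 TPM in siTDP-43 libraries and 101 ± 2.50 TPM in siControl libraries (log2 -0.42 ± 0.04, limma adjusted p = 0.00013), and their sum was 2791 to 2829 TPM in siTDP-43 libraries and 3081 to 3254 TPM in siControl libraries. The 9 not called on deposited TPM were PCNA, MCM2, MCM3, MCM4, MCM5, MCM7, TYMS, RRM2 and E2F1. KPNA2, CSE1L and RANBP1 are known to be higher in cycling cells, and the part of proliferation in their change was not tested. In bulk RNA, fewer cells of a kind and less RNA per cell cannot be told apart.

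The second comparison asked what the N352S change in TDP-43 does, with N352S set against wild type. At an adjusted p under 0.05, 17 of 55 members were lower (30.9%), beside 11.9% of all tested genes, and 1 was higher (1.82%), beside 8.28% of all tested genes, which makes 32.7% of members and 20.2% of all genes called in either direction. The median log2 fold change of the members was -0.15, while that of all genes was -0.03, and 47 members were below 0. In 40 members (72.7%) both N352S libraries were below both wild-type libraries, beside 34.7% of all tested genes, and in 2 they were both above, beside 25.4%. Lower members numbered 16, 17 and 19 under median-of-ratios scaling, quantile normalization and without mitochondrially encoded genes, and the median of the members stayed below 0 in each. IPO4 was lost under median-of-ratios scaling and under quantile normalization, and the latter called RAN lower. Without mitochondrially encoded genes, NUP35 and NUP62 were added. Importins of the beta family (6 of 11 lower) and nucleoporins (7 of 25 lower) held most of the calls, with 2 of 6 importin alphas and 1 of 7 exportins.

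KPNB1 showed the largest change here as well as the smallest p. It stood at 243 and 258 TPM in N352S libraries, against 405 and 393 TPM in wild-type libraries. The N352S level was 62.7% of wild type, with a log2 fold change of -0.67 ± 0.05 (limma adjusted p = 2.9e-05), a value below which 3.90% of all tested genes lay. There were 63.9 ± 4.45 KPNB1 per 100 summed importin alpha in N352S libraries and 98.1 ± 3.35 in wild-type libraries, a ratio that was lower in both N352S libraries. The short antisense gene AC015674.1 overlaps KPNB1 and stood at 13.8 and 22.6 TPM in N352S libraries, against 0 and 10.1 TPM in wild-type libraries (log2 2.49, adjusted p = 0.12), and strand-specific counting is not stated.

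Other import receptors fell less. IPO5 (ENSG00000065150, chr13:97953658-98024297, plus strand), a receptor of ribosomal proteins and histones, stood at 121 and 115 TPM in N352S libraries, against 146 and 137 TPM in wild-type libraries, with groups apart and a log2 fold change of -0.26 ± 0.05 (limma adjusted p = 0.0047). TNPO1 (ENSG00000083312, chr5:72816312-72916733, plus strand), the transportin that imports hnRNP A1, stood at 115 and 94.0 TPM in N352S libraries, against 140.4 and 139.5 TPM in wild-type libraries. Its N352S libraries differed from each other by nearly as much as the nearer of them did from wild type, and the log2 fold change was -0.42 ± 0.09 (adjusted p = 0.0084). TNPO3 (ENSG00000064419, chr7:128954180-129055173, minus strand), which imports SR splicing factors, stood at 52.6 and 48.3 TPM in N352S libraries, against 58.8 and 57.2 TPM in wild-type libraries, again without overlap (log2 -0.20 ± 0.05, adjusted p = 0.021). IPO4, a histone importin, averaged 28.0 ± 2.67 TPM in N352S libraries and 35.2 ± 1.88 TPM in wild-type libraries (log2 -0.32 ± 0.08, adjusted p = 0.022). IPO11 averaged 14.4 ± 0.940 TPM in N352S libraries and 17.9 ± 0.156 TPM in wild-type libraries (log2 -0.30 ± 0.07, adjusted p = 0.013).

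XPOT was the one exportin called. It stood at 108 and 102 TPM in N352S libraries, against 141 and 143 TPM in wild-type libraries, a wide gap beside the spread of either pair, with a log2 fold change of -0.43 ± 0.08 (limma adjusted p = 0.0064). XPO1 stood at 117 and 109 TPM in N352S libraries, against 123 and 124 TPM in wild-type libraries, and CSE1L at 83.5 and 84.2 TPM in N352S libraries, against 88.0 and 91.7 TPM in wild-type libraries. Neither pair of groups overlapped, and neither was called (XPO1 log2 -0.13 ± 0.06, adjusted p = 0.15, and CSE1L -0.10 ± 0.06, adjusted p = 0.3).

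Among importin alphas, KPNA3 stood at 25.1 and 25.2 TPM in N352S libraries, against 30.2 and 32.2 TPM in wild-type libraries. The groups did not overlap (log2 -0.30 ± 0.06, limma adjusted p = 0.0069). KPNA4 averaged 28.6 ± 0.255 TPM in N352S libraries and 34.2 ± 2.21 TPM in wild-type libraries (log2 -0.25 ± 0.05, adjusted p = 0.012). KPNA2 stood at 281 and 269 TPM in N352S libraries, against 273 and 276 TPM in wild-type libraries, groups that overlapped, with a log2 fold change of 0.00 ± 0.08 (adjusted p = 0.99).

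In the Ran cycle, RANBP1 stood at 243 and 256 TPM in N352S libraries, against 304 and 302 TPM in wild-type libraries. The groups were apart, with a log2 fold change of -0.28 ± 0.06 (limma adjusted p = 0.012), and there were 30.2 ± 2.11 RANBP1 per 100 RAN in N352S libraries and 33.7 ± 0.835 in wild-type libraries. RAN stood at 846 and 807 TPM in N352S libraries, against 886 and 912 TPM in wild-type libraries, and was not called on deposited TPM (log2 -0.12 ± 0.04, adjusted p = 0.083). With quantile normalization RAN was called lower (limma adjusted p = 0.012). RANBP3, a Ran-binding cofactor of XPO1, was the only member called higher, at 66.8 and 55.6 TPM in N352S libraries against 48.5 and 49.4 TPM in wild-type libraries (log2 0.31 ± 0.09, adjusted p = 0.042; 0.21 without N352S 81 and 0.051 with the replicate block). It was named after its values were seen, and its N352S libraries differed from each other more than the lower of them did from wild type.

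Lower nucleoporins came from the Y complex, the inner ring and the nuclear basket, the last being the filaments on the nuclear side where transport complexes are taken apart. In the inner ring, NUP205 (ENSG00000155561, chr7:135557919-135648757, plus strand) stood at 75.7 and 83.3 TPM in N352S libraries, against 98.9 and 97.9 TPM in wild-type libraries, and NUP155 (ENSG00000113569, chr5:37288137-37371181, minus strand) at 32.5 and 32.1 TPM in N352S libraries, against 40.2 and 39.8 TPM in wild-type libraries. Both sets of libraries were apart, with log2 fold changes of -0.31 ± 0.06 (limma adjusted p = 0.0056) and -0.30 ± 0.06 (adjusted p = 0.0071). SEH1L stood at 25.5 and 26.0 TPM in N352S libraries, against 32.0 and 31.0 TPM in wild-type libraries, a gap larger than the spread of either pair (log2 -0.28 ± 0.05, adjusted p = 0.0061). Of its Y complex partners, NUP160 averaged 46.0 ± 3.39 TPM in N352S libraries and 56.7 ± 1.69 TPM in wild-type libraries (log2 -0.30, adjusted p = 0.012). NUP107 averaged 55.5 ± 1.10 TPM in N352S libraries and 65.9 ± 1.80 TPM in wild-type libraries (log2 -0.24, adjusted p = 0.021).

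In the basket, NUP153 (ENSG00000124789, chr6:17615035-17706834, minus strand) stood at 34.8 and 32.8 TPM in N352S libraries, against 40.6 and 38.7 TPM in wild-type libraries. NUP50 (ENSG00000093000, chr22:45163841-45188015, plus strand), its mobile partner that helps to release importin cargo, stood at 36.0 and 35.4 TPM in N352S libraries, against 43.1 and 41.3 TPM in wild-type libraries. Both were apart, with log2 fold changes of -0.22 ± 0.05 (limma adjusted p = 0.018) and -0.24 ± 0.06 (adjusted p = 0.027). TPR, the filament protein of the basket, averaged 112 ± 5.07 TPM in N352S libraries and 110 ± 0.771 TPM in wild-type libraries and was not called. No gene of the central channel, the pore membrane or the cytoplasmic face passed on deposited TPM. Both N352S libraries were below both wild-type libraries for NUP54 and NUP62 of the channel and POM121 of the membrane. The same held for RANBP2, NUP88, NUP214 and RAE1 of the cytoplasmic face. Such separation was seen in 72.7% of members and 34.7% of all tested genes. The 25 nucleoporins summed to 1166 ± 29.3 TPM in N352S libraries and 1303 ± 9.96 TPM in wild-type libraries, and to 1466 ± 13.9 TPM in siTDP-43 libraries and 1520.0 ± 29.4 TPM in siControl libraries.

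With 2 libraries a group, the spread behind these tests is shared with the siRNA libraries, and a fit of the genotype libraries alone left 6 members lower. Those were RANBP1, XPOT, KPNB1, NUP107, NUP155 and NUP205, with IPO5 and SEH1L among the calls lost in that fit. Calls for KPNB1, XPOT, IPO5, SEH1L, NUP155 and NUP205 held whichever library was left out, and the count of lower members was 10 without N352S 82, 9 without wild type 79 and 9 without wild type 80. Without wild type 80, RANBP1, KPNA3, KPNA4, TNPO3, IPO11, NUP107, NUP160 and NUP50 were lost (adjusted p 0.052 to 0.11), and without wild type 79, RANBP1, TNPO1, TNPO3, IPO4, IPO11, NUP107, NUP50 and NUP153 (0.052 to 0.15). KPNA4, TNPO3, IPO11, NUP107, NUP160, NUP50 and NUP153 were lost without N352S 82 (0.058 to 0.11), and RANBP1, IPO4, NUP107 and NUP50 without N352S 81 (0.057 to 0.12).

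**Figure D3:**
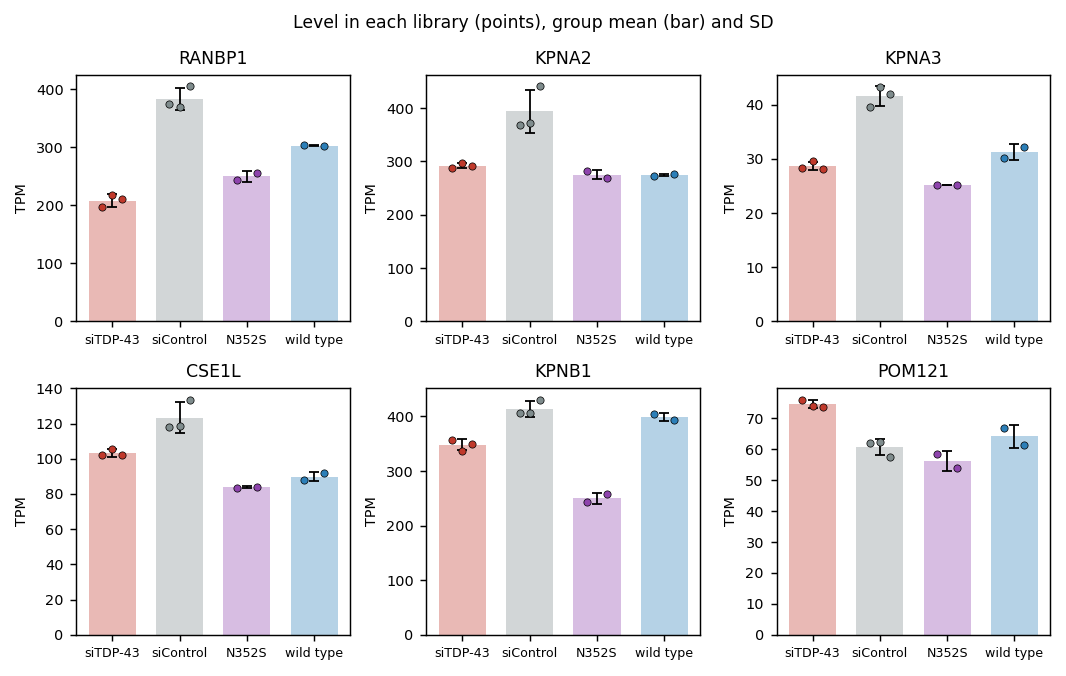
Level in TPM in each library (points) with the group mean (bar, from 0) and SD (line) for RANBP1, KPNA2, KPNA3, CSE1L, KPNB1 and POM121. The 3 siTDP-43 points of RANBP1 lie between 196 and 217 TPM, below the other 7 libraries, and the 2 N352S points of KPNB1 (243 and 258 TPM) lie below the other 8.

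The members called in the 2 comparisons were partly shared. RANBP1, XPOT, KPNA3, KPNB1 and SEH1L were lower in both, 38.5% of the 13 lower after knockdown and 29.4% of the 17 lower in N352S. Over all tested genes, 595 were lower in both (3.48%, beside 9.09% of members), which is 17.6% of the genes lower after knockdown and 29.3% of those lower in N352S. A further 8 were called lower in the knockdown alone, 12 in N352S alone, and 27 were called in neither (49.1%, beside 62.1% of all tested genes). Whether the effects themselves differ was tested in the same fit as the knockdown effect minus the N352S effect. That difference passed for 12 of 55 members (21.8%), beside 22% of all tested genes, so the members' share was that of the background. With the replicate number as a block the count was 9, and RCC1, TNPO3 and NUP153 were lost (adjusted p = 0.062, 0.053 and 0.064). Of the 12, RANBP1 and KPNA2 had the lower effect after knockdown (3.64% of members, beside 13.8% of all genes) and the other 10 the lower effect in N352S (18.2%, beside 8.2%).

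RANBP1 fell more after knockdown than in N352S (difference -0.60 ± 0.08 on the log2 scale, limma adjusted p = 0.0008). KPNB1 fell more in N352S (0.42 ± 0.06, adjusted p = 0.0017). KPNA2 fell after knockdown and had a log2 fold change of 0.00 in N352S (difference -0.43 ± 0.10, adjusted p = 0.015). POM121 stood at 58.5 and 53.8 TPM in N352S libraries, against 66.8 and 61.5 TPM in wild-type libraries, a shift of -0.19 ± 0.06 that was not called (adjusted p = 0.061) and that differed from its rise after knockdown (0.48 ± 0.08, adjusted p = 0.003). POM121C moved likewise, at 63.0 ± 0.163 TPM in N352S libraries and 74.3 ± 4.07 TPM in wild-type libraries, with a difference between the effects of 0.62 (adjusted p = 0.0022).

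RCC1, TNPO3, NUP62, NUP50 and NUP153 also had effects of opposite sign. After knockdown they were near or slightly above control and none was called. TNPO3 stood at 61.1, 60.1 and 58.6 TPM in siTDP-43 libraries, against 58.7, 58.3 and 58.5 TPM in siControl libraries (log2 0.04 ± 0.04, limma adjusted p = 0.57). NUP62, the core of the channel's permeability barrier, stood at 67.2, 70.4 and 69.6 TPM in siTDP-43 libraries, against 61.3, 64.5 and 67.5 TPM in siControl libraries (log2 0.10 ± 0.04, adjusted p = 0.14). Both pairs of groups overlapped. NUP50 stood at 53.8, 53.3 and 57.2 TPM in siTDP-43 libraries, against 49.5, 53.0 and 55.6 TPM in siControl libraries, and NUP153 at 52.0, 52.1 and 49.7 TPM in siTDP-43 libraries, against 49.5, 49.6 and 52.4 TPM in siControl libraries. These overlapped too, with log2 fold changes of 0.05 ± 0.05 (adjusted p = 0.47) and 0.02 ± 0.04 (adjusted p = 0.77).

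In the genotype libraries, RCC1 stood at 40.3 and 36.6 TPM in N352S libraries, against 42.1 and 42.6 TPM in wild-type libraries, and NUP62 at 55.05 and 53.4 TPM in N352S libraries, against 62.7 and 59.2 TPM in wild-type libraries. Neither was called (log2 -0.14 ± 0.06, limma adjusted p = 0.15, and -0.16 ± 0.05, adjusted p = 0.066), though N352S lay below wild type in both. The differences between effects were 0.27 ± 0.08 for RCC1 (adjusted p = 0.036), 0.23 ± 0.06 for TNPO3 (0.029), 0.26 ± 0.07 for NUP62 (0.028), 0.29 ± 0.08 for NUP50 (0.03) and 0.24 ± 0.07 for NUP153 (0.033). ATF5 overlaps NUP62 on the other strand and was called lower after knockdown (log2 -0.41, adjusted p = 0.0035) and in N352S (log2 -1.11, adjusted p = 5.2e-05).

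IPO5, NUP155 and NUP205 were called in N352S only, and there the difference passed too. After knockdown, IPO5 stood at 165, 165 and 160.0 TPM in siTDP-43 libraries, against 170.5, 163 and 166 TPM in siControl libraries. NUP205 stood at 119.8, 113 and 115 TPM in siTDP-43 libraries, against 117, 116 and 124 TPM in siControl libraries, and NUP155 at 49.0, 44.5 and 43.9 TPM in siTDP-43 libraries, against 47.4, 46.7 and 45.1 TPM in siControl libraries. All 3 overlapped between groups, and the differences between effects were 0.23 ± 0.06 for IPO5 (limma adjusted p = 0.024), 0.28 ± 0.08 for NUP155 (0.028) and 0.26 ± 0.07 for NUP205 (0.031).

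TNPO1 had no such call, at 159, 153 and 152 TPM in siTDP-43 libraries against 158, 160.2 and 174 TPM in siControl libraries, groups that overlapped slightly (difference between effects 0.34 ± 0.11, limma adjusted p = 0.057). IPO8 stood at 22.1 and 22.5 TPM in N352S libraries, against 25.9 and 24.1 TPM in wild-type libraries, lower without a call (log2 -0.16 ± 0.06, adjusted p = 0.094), and its effects were not called different (-0.24 ± 0.08, adjusted p = 0.054). Among the 12 differences, those of RANBP1, KPNB1 and POM121 held whichever library was left out, KPNA2 was lost without N352S 81 or wild type 79 (adjusted p 0.057 to 0.058), and the other 8 were each lost without 5 to 7 of the libraries (0.05 to 0.12). The count of 12 was 3 without wild type 79, 6 without wild type 80, 5 without N352S 82, 7 without siTDP-43 1 or 2, and 4 without siControl 2.

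**Figure D4:**
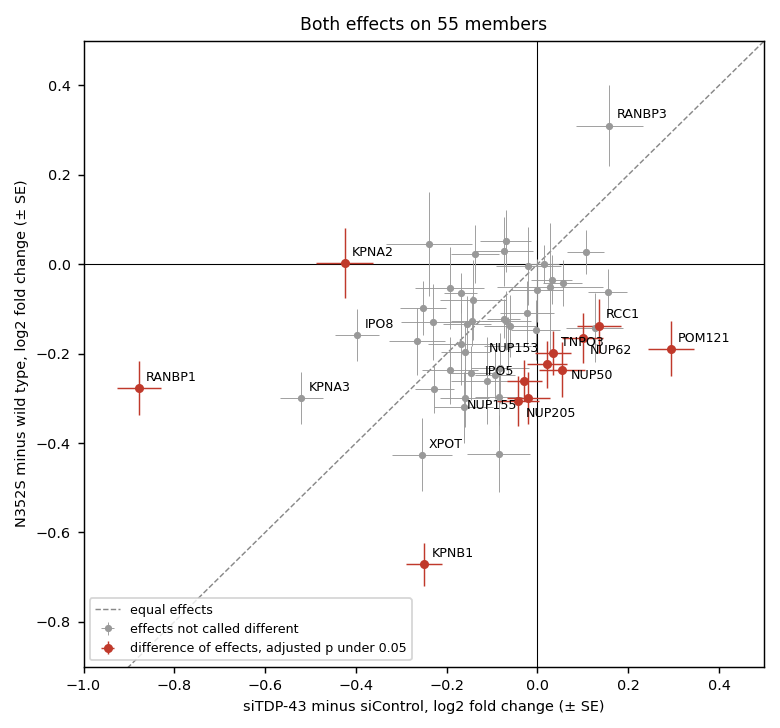
Effect of knockdown (x axis) against effect of N352S (y axis) on the 55 members, each a log2 fold change of TPM + 1 with its SE, with the dashed line marking equal effects and red points marking members whose effects differ at an adjusted p under 0.05. RANBP1 and KPNA2 lie left of the line, KPNB1 far below it, and POM121 (0.29 and -0.19) right of 0 and below it.

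Genes near the members on their chromosomes were compared as a description. For each member the median log2 fold change of the nearest tested protein-coding genes, 10 on either side where present, lay between -0.21 (KPNA4) and 0.07 (NUP62) after knockdown and between -0.23 (CSE1L) and 0.16 (XPO7) in N352S. Neighbours of RANBP1 had a median of 0.00 after knockdown, against -0.88 for RANBP1 itself. Neighbours of KPNB1 had a median of -0.15 in N352S, against -0.67 for KPNB1.

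Some members share sequence or ground with other genes. A tested gene overlapped 20 of them, on the opposite strand for 17, and reads of such pairs may not be separated. TRMT2A, opposite RANBP1, was not called in either comparison, and KIF2A, on the strand of IPO11, was called lower in both. Of 32 pseudogenes named after a member, 4 had a mean of at least 1 TPM, the highest being KPNA2P3 (12.9 TPM, against 316 TPM for KPNA2) and IPO5P1 (12.7 TPM, against 151 TPM for IPO5). The RGPD copies of RANBP2 summed to 20.8 to 28.6 TPM, beside 31.5 TPM for RANBP2, and the split of reads among these copies is uncertain.

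TDP-43 binds UG-rich RNA, so TG repeats were looked up in the longest coding transcript of each gene. A run of at least 6 TG was present in 3 of 55 members (5.45%) and in 624 of 12682 tested coding genes (4.92%). XPO1 had runs of 30 and 12 bases, TNPO1 of 14 and KPNA4 of 12. XPO1 was called lower after knockdown on deposited TPM but under none of the 3 other scalings, and the other pair was called lower in N352S. The median knockdown log2 fold change was -0.06 for genes with a run, beside -0.08 for all tested genes. The part of these runs in the calls was not tested, and introns were not searched.

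Genes that work beside the pore are set against the 26% of all tested genes called in either direction after knockdown and the 20.2% called in N352S. Of 8 tested nucleoporins outside the 55, NUP58 of the central channel was lower after knockdown, at 35.5 ± 1.09 TPM in siTDP-43 libraries and 49.4 ± 1.40 TPM in siControl libraries (log2 -0.47 ± 0.06, limma adjusted p = 0.00058), SEC13 was also lower (-0.12, adjusted p = 0.0498), and POM121C was higher (37.5% called), and none was called in N352S. Of 8 other transport factors, HIKESHI, the importer of HSP70, was lower after knockdown, at 63.2 ± 2.05 TPM in siTDP-43 libraries and 77.0 ± 1.21 TPM in siControl libraries (log2 -0.28 ± 0.04, adjusted p = 0.0009). NXT2, a partner of the mRNA exporter NXF1, was higher after knockdown and lower in N352S, at 9.92 ± 0.605 TPM in siTDP-43 libraries and 7.11 ± 0.531 TPM in siControl libraries, and 5.07 ± 0.346 TPM in N352S libraries and 8.46 ± 0.269 TPM in wild-type libraries. Its effects of 0.43 (adjusted p = 0.0039) and -0.64 (adjusted p = 0.0017) differed by 1.07 (adjusted p = 0.00041). SNUPN, the adaptor for spliceosomal RNA-protein particles, was lower in N352S (log2 -0.34 ± 0.09, adjusted p = 0.029).

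Of 17 mRNA export genes, THOC7 of the THO complex alone was called after knockdown (log2 -0.26 ± 0.06, limma adjusted p = 0.0089), and THOC5, THOC6 and CHTOP were called lower in N352S (log2 -0.26, -0.20 and -0.15, adjusted p = 0.03, 0.038 and 0.048), where median-of-ratios scaling called none lower and 1 higher. That scaling called 1 lower and 2 higher after knockdown. Of 14 genes of the nuclear envelope and lamina, 2 were lower after knockdown (1 lower and 1 higher with median-of-ratios scaling). BANF1, which ties chromatin to the envelope, averaged 216 ± 2.29 TPM in siTDP-43 libraries and 308 ± 18.0 TPM in siControl libraries (log2 -0.51 ± 0.04, adjusted p = 0.00012). LMNB2, a B-type lamin, was the other (log2 -0.14 ± 0.05, adjusted p = 0.045). In N352S, 4 of the 14 were lower and 1 higher (35.7% called). LMNB1, the other B-type lamin, averaged 99.1 ± 3.53 TPM in N352S libraries and 136 ± 6.70 TPM in wild-type libraries (log2 -0.45 ± 0.07, adjusted p = 0.0021), and LMNB2 54.0 ± 0.622 TPM in N352S libraries and 67.5 ± 0.552 TPM in wild-type libraries (log2 -0.32 ± 0.06, adjusted p = 0.0043). LBR and TMPO were the other lower genes, and SYNE3 was higher. Proliferation genes in N352S were lower in 3 of 20 cases and higher in 1 (2 and 4 with median-of-ratios scaling). The higher gene, TOP2A, stood at 162 ± 9.19 TPM in N352S libraries and 128 ± 3.26 TPM in wild-type libraries (log2 0.34 ± 0.06, adjusted p = 0.003). The 3 lower genes were MCM4, MCM5 and MCM7. Without a call, both N352S libraries were above both wild-type libraries for CCNB2, CDK1, CCNA2, AURKB, BUB1 and PLK1. They were below for PCNA, MCM2, MCM3, MCM6 and TYMS, also without a call. Over all tested genes, called or not, both N352S libraries were above in 25.4% and below in 34.7%. The sum of the 20 genes, which joins both directions, was 2410 to 2429 TPM in N352S libraries and 2523 to 2537 TPM in wild-type libraries. The part of proliferation in the N352S changes was not tested.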

How the data were processed

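Trizol RNA went into TruSeq libraries, per the labels' protocols, and STAR and RSEM were run against hg38, according to the submitters' processing notes; tool versions, the annotation and the strand setting are not stated there. The deposited table holds TPM for 58174 genes in 10 libraries, which are shares and keep no depth, so a count test was not possible. The 17118 genes with a mean of 1 TPM or more were tested as log2(TPM + 1), so log2 fold changes understate the change of low genes. Under R 4.3.3, limma 3.58.1 fitted the means of all 4 groups, with the trend option and 6 residual degrees of freedom, with Benjamini-Hochberg adjustment over all tested genes and a threshold of 0.05; lists were described by counts and medians only. Values after ± are SDs over libraries, or SEs of log2 fold changes. The fit was tested on simulated data with known fold changes and independent noise in each library. Those data held no paired replicates and no shift of a whole library, so they cannot speak to either. The p-values measure the spread between libraries whose separateness beyond the label of biological replicates is not given.

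Positions came from GENCODE release 29 (57836 of 58174 identifiers matched), and promoters from RefSeq. Given with values in every library are RAN, RANBP1, XPO1, KPNB1, KPNA2 and CSE1L, the 8 members with the smallest adjusted p per comparison, and members with effects of opposite sign whose difference was called; of other lists, mainly the 2 genes with the smallest adjusted p. The members and lists were chosen with earlier results of these data known. Same-numbered siRNA libraries deviated together (r = 0.336, 0.137 and 0.198), so the titles' numbers were taken to pair them in an alternative fit with the number as a block; genotype libraries share no number. Alternatives were pseudocounts of 0.1 and 5, no filter or a mean of 5 TPM, 3 other scalings, only the groups compared, a minimum fold change, the block, and leaving out each library. Figures were drawn with matplotlib 3.10.9.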

Additional observations from a re-analysis of the deposited data

Results flagged for a closer look

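For 12 members the knockdown effect and the N352S effect differed in the test of the difference itself, given here as the knockdown effect minus the N352S effect on the log2 scale (limma, adjusted over all genes). The knockdown effect was the lower one for RANBP1 (-0.60; 3 of 3 siTDP-43 libraries below all siControl libraries, and 2 of 2 N352S libraries below both wild-type libraries) and KPNA2 (-0.43; lower in 3 of 3 siTDP-43 libraries, with overlap between the genotypes). The N352S effect was the lower one for KPNB1 (0.42, lower in 3 of 3 siTDP-43 and 2 of 2 N352S libraries) and POM121 (0.48, higher in 3 of 3 siTDP-43 libraries and lower in 2 of 2 N352S libraries). It was also the lower one for the import receptors IPO5 (0.23) and TNPO3 (0.23), the inner ring genes NUP155 (0.28) and NUP205 (0.26), the channel gene NUP62 (0.26), the basket genes NUP50 (0.29) and NUP153 (0.24), and the Ran exchange factor RCC1 (0.27). In these 8, both N352S libraries were below both wild-type libraries, and the siTDP-43 and siControl libraries overlapped in all but RCC1. Both N352S libraries were below both wild-type libraries in 72.7% of members and 34.7% of all tested genes. The 8 were picked for a lower N352S effect, so that separation adds no support. With the replicate number as a block, which pairs the siRNA libraries, the differences of RCC1, TNPO3 and NUP153 were lost (adjusted p = 0.062, 0.053 and 0.064) and 9 were left.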

How the results depend on the processing

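Depth is unknown, the genotype groups hold 2 libraries each, and TPM are shares, so the balance of higher and lower calls after knockdown moves with the scaling. After knockdown, the members called lower numbered 8 with median-of-ratios scaling, 8 with quantile normalization and 4 with a minimum fold change added, and those called higher 9, 9 and 0, and 5 without mitochondrially encoded genes. Their median log2 fold change was 0.0035, 0.0012 and -0.042 under the 3 scalings. In N352S, 6 members were lower with only the groups compared and 3 with the minimum fold, and the single higher call was absent (0) with no filter, without mitochondrially encoded genes, with only the groups compared, with the replicate block and with the minimum fold. The difference between effects was called for 4 members with the minimum fold. With 1 library left out, members lower after knockdown ranged from 9 to 15 and higher from 1 to 2, members lower in N352S from 9 to 21 and higher from 0 to 1, and differences from 3 to 16; 1 member was higher after knockdown without siTDP-43 1, 2 or 3 or siControl 3. The replicate block, which pairs the siRNA libraries by number, left 13 members lower and 2 higher after knockdown, with XPO1 lost (adjusted p = 0.066) and TPR gained (0.037), and 9 differences (RCC1, TNPO3 and NUP153 lost); in N352S RANBP3 was lost and RAE1 gained (0.032), and it changed no other call of a member. Signs turned for values that were not called. With median-of-ratios scaling the knockdown log2 fold change was 0.012 for RAN, 0.058 for IPO5, 0.044 for NUP205, 0.065 for NUP155 and 0.0015 for TNPO1. With quantile normalization it was 0.068 for IPO5, 0.045 for NUP205 and 0.069 for NUP155, and without mitochondrially encoded genes 0.012 for IPO5 and 0.020 for NUP155, whose value ranged from -0.068 to 0.0089 with 1 library left out, the highest without siTDP-43 3. For KPNA2 the N352S log2 fold change was -0.0059 without mitochondrially encoded genes, -0.028 without N352S 81 and -0.0071 without wild type 79, and 0.034 without N352S 82. The causes were not tested. RANBP1, CSE1L, KPNA2, KPNA3, KPNB1, IPO8, SEH1L, NUP188 and POM121 kept their knockdown calls, and XPOT, KPNB1, NUP155 and NUP205 their N352S calls, in all 19 alternatives at the same threshold.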
